A study of Acipenser transmontanus and Acipenser medirostris with 18 samples.

Results

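The white sturgeon barbel was represented by 1 Iso-Seq library of dissected tissue and was set against the other 5 white sturgeon tissue libraries, among 18 libraries in the series. These are the ampullae of Lorenzini, the upper palate, the rim of the protrusible mouth, the esophagus and the dorsal skin, with 1 library each. All 6 come from octoploid Acipenser transmontanus with no experimental treatment, and per the study's methods the fish were broodstock or came from a caviar producer. Tissue pieces were carried to the laboratory in culture medium and hold every cell type of the piece. The labels give neither the age nor the fish of each library, so libraries that share a fish cannot be told apart from those that do not. The library names of the barbel, ampullae and mouth rim end in 2 and those of the other 3 tissues in 1, and what this digit means is not stated. The labels also give each library its own batch number, which is its sequencing barcode. A barcode belongs to a single library and does not name a processing batch, so the labels do not show which tissues were processed together. Per the study's methods, cDNA libraries were pooled before the sequencing libraries were built. PacBio loci, which are groups of overlapping transcripts, were compared by their share of the counts that carry a sterlet protein name. A locus was called higher where the barbel share was at least 2 times the highest of the other 5 shares and the 95% counting interval of the ratio to each of them lay above 1, and lower by the mirror rule. By this rule every call also holds against the ampullae and mouth rim, which share the barbel's digit. This follows from the rule and is no check on what the digit stands for. With 1 library per tissue there is no replicate check, no p-value is given for any locus, and all intervals cover counting error only. PCR copies of a molecule were counted as separate reads.

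Barbels are whisker-like sensory appendages that hang in front of the mouth and touch the river bottom as the fish searches for food. Their surface is a stratified squamous epithelium, whose cells are filled with keratin filaments built from type I and type II partners and are held together by desmosomes. The basal cells are tied to the basement membrane by integrins, hemidesmosomes and the laminins between them. In many fishes barbels also carry taste buds.

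The barbel library held 195889 annotated counts, against 19427 in the esophagus, 62713 in the upper palate, 65751 in the ampullae, 113633 in the mouth rim and 121180 in the dorsal skin. A single count therefore stood for 0.000510% of the barbel and for 0.00515% of the esophagus, and a locus with 0 counts may still hold a share of up to 0.00153% and 0.0154% there, which is the share of 3 counts. Counts without a protein name were 4.07% of the barbel library and between 5.68% and 34.8% of the others. Of 9849 named loci with a count in any of the 6 tissues, 3278 had at least 20 counts and were tested.

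At 15 loci (0.458% of those tested) the barbel was higher than all other tissues, and at 53 (1.62%) it was lower. The higher loci encode actin-severing proteins, proteins of integrin adhesion, an interferon-induced GTPase, enzymes of sterol synthesis and proteins of the mitotic spindle. The lower loci were led by a keratin, and 11 of them encode proteins of RNA processing and 5 ribosomal proteins. By the same rule the other tissues had between 11 and 87 higher loci and between 0 and 16 lower loci. With these totals the barbel, the deepest library, had the most lower loci of the 6. The other tissues were not ranked under other totals. The direction of the balance depended on the scaling. The median log2 ratio of barbel to the pooled other tissues over all tested loci was -0.43. With TMM effective totals, which bring that median to 0.13, there were 79 higher and 15 lower loci, so that 84.0% of the calls were higher in place of 22.1%. DESeq2 size factors gave a median of 0.01 with 50 higher and 19 lower loci (72.5% higher). Leaving the largest keratin locus, PB.22701, out of the totals, a setting chosen after the data were seen, gave a median of -0.25 with 20 higher and 36 lower loci. Each of the other totals raises the barbel share against every other tissue, so that a higher call cannot be lost and a lower call cannot be gained by them. Of the 53 lower loci, 15 kept their call under each of the 6 totals tried.

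**Figure D1:**
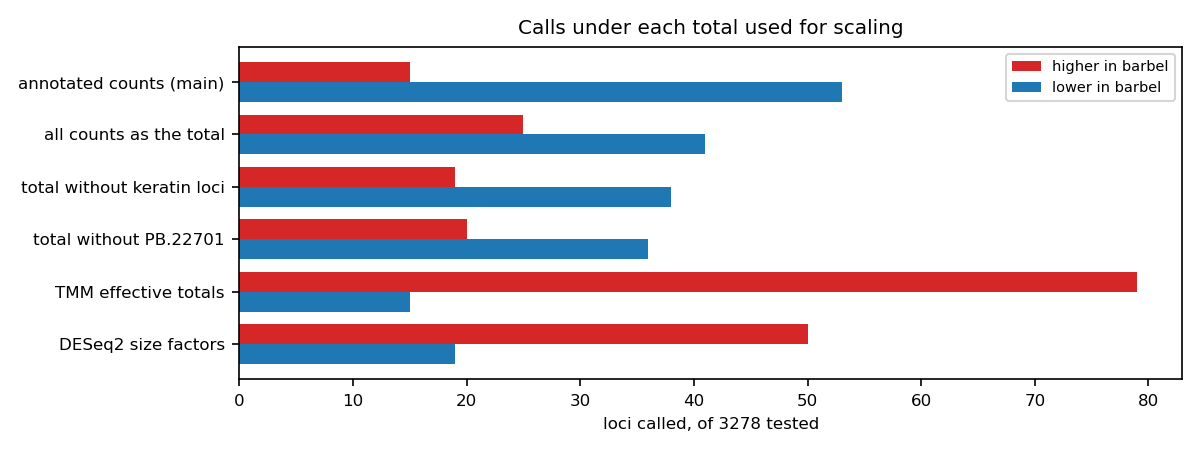
Number of loci called higher (red) or lower (blue) in the barbel, of 3278 tested, under each of the 6 totals to which counts were scaled. The main totals give 15 higher and 53 lower loci, and TMM effective totals give 79 and 15.

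The keratin locus PB.22701, a type I keratin, was the most abundant locus of the barbel. It held 30165 counts there (15.4%), against 5073 in the ampullae (7.72%), 6398 in the mouth rim (5.63%), 2370 in the upper palate (3.78%), 2864 in the dorsal skin (2.36%) and 10 in the esophagus (0.0515%). The barbel share was 1.996 times that of the ampullae (95% counting interval 1.94 to 2.06), so the locus lay just under the 2-fold minimum and was not called. This call turned with the scaling, since the ratio to the ampullae was 2.07 without keratin loci in the totals, 2.19 with all counts, 2.42 with DESeq2 size factors and 2.71 with TMM effective totals. Without the ampullae library it was 2.73, against the mouth rim. A single transcript, PB.22701.3, accounted for 98.0% of its barbel counts and for 91.5% of its counts in the pooled other tissues.

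Other keratin loci were distributed otherwise. PB.22698, also type I, had 2456 counts in the barbel, 1412 in the ampullae, 1129 in the dorsal skin, 42 in the upper palate, 41 in the mouth rim and 0 in the esophagus, and its barbel share was 0.584 times that of the ampullae (95% counting interval 0.547 to 0.624). It was thus a keratin of the barbel, ampullae and dorsal skin libraries with few counts in those of the mouth and gut. PB.20745 was small and lay mainly in the barbel and ampullae, with 72 counts in the barbel, 14 in the ampullae, 1 in the upper palate, 2 in the mouth rim and 0 in both the esophagus and dorsal skin. PB.25558, the leading type II locus, had 1787 counts in the barbel, 1374 in the ampullae, 709 in the upper palate, 1232 in the mouth rim, 97 in the esophagus and 1022 in the dorsal skin. Its barbel share was below that of the ampullae, with a ratio of 0.437 (95% counting interval 0.407 to 0.469).

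The keratin PB.23354 was the clearest of the lower loci. It had 86 counts in the barbel (0.0439%), against 374 in the ampullae (0.569%), 332 in the upper palate (0.529%), 355 in the mouth rim (0.312%), 262 in the esophagus (1.35%) and 328 in the dorsal skin (0.271%). Even against the dorsal skin, the lowest of the others, the barbel share was 6.17-fold lower (ratio 0.162, 95% counting interval 0.126 to 0.206). PB.20744, whose type the sources used here do not give, had 862 counts in the barbel and 2741 in the mouth rim. PB.25257, a type I locus, had 818 counts in the barbel against 1258 in the mouth rim, and its barbel share was below all 5 others with a ratio to the lowest of 0.670.

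Summed over all loci named keratin, the barbel held 18.6% keratin counts and the others between 5.61% (dorsal skin) and 15.7% (ampullae). Type I loci made up 17.1% of the barbel and between 2.23% and 11.5% of the others, while type II loci made up 0.992% of the barbel and between 0.551% and 2.34% of the others. Among these typed loci the barbel share was the largest of the 6 for type I. For type II it lay inside the range of the others. The sums cover only the 4 type I and 2 type II loci typed from the study's accession list, of 19 keratin loci. Loci without a known type, such as PB.20744 and PB.23354, enter neither sum, so the balance of the types over all keratins is not known. Of 11 keratin loci tested, 2 (18.2%) had their largest share in the barbel and 3 (27.3%) their smallest, against 9.76% and 21.3% of all tested loci, and the median log2 ratio over them was -0.59 although the summed ratio was 1.96, because PB.22701 carries the sum. Most keratin counts of the barbel were thus those of PB.22701. Here and in the lists below, a locus can have its smallest share in the barbel only where every other tissue has a count. Lists with many counts in the shallow libraries can thus reach this more often.

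**Figure D2:**
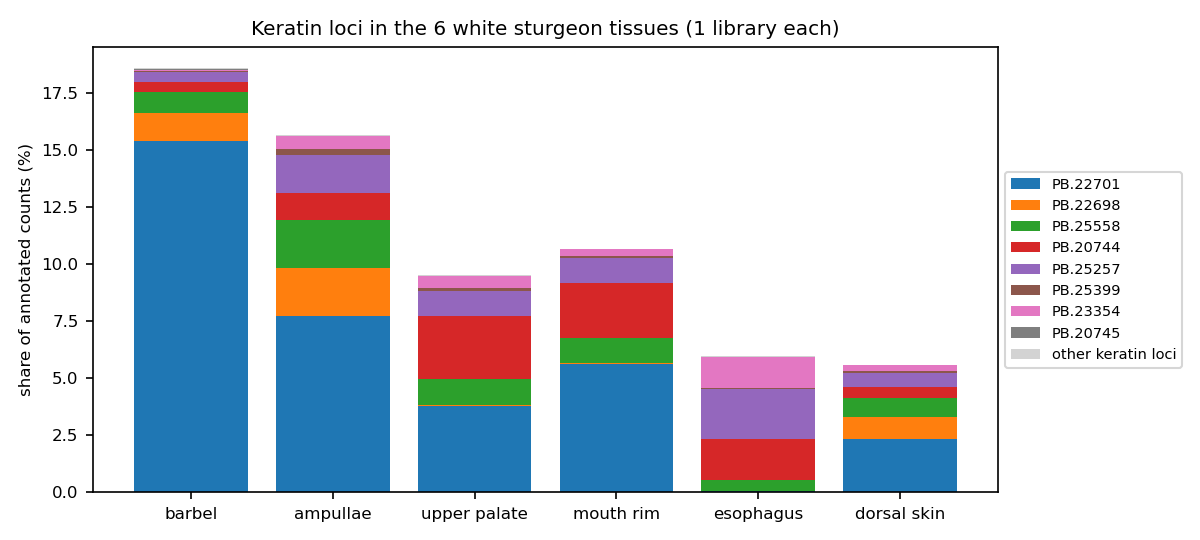
Share of annotated counts (%) taken by keratin loci in each of the 6 tissue libraries, stacked by locus. PB.22701 alone makes up 15.4% of the barbel, while PB.23354 is 0.0439% there and between 0.271% and 1.35% elsewhere.

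Among the 15 higher loci, the largest was scinderin like a (PB.9972). Scinderin severs and caps actin filaments in the presence of calcium. It had 2711 counts in the barbel (1.38%), against 603 in the mouth rim (0.531%), 167 in the ampullae (0.254%), 27 in the esophagus (0.139%), 71 in the upper palate (0.113%) and 91 in the dorsal skin (0.0751%). The barbel exceeded the mouth rim by 2.61-fold (95% counting interval 2.39 to 2.85) and, with the mouth rim left out, the ampullae by 5.45-fold, and 99.2% of its barbel counts were a single transcript. A gelsolin-like locus of the same protein family (PB.11323) had 141 counts in the barbel, 28 in the mouth rim, 11 in the ampullae, 4 each in the esophagus and dorsal skin and 2 in the upper palate. It was 2.92-fold above the mouth rim (95% counting interval 1.94 to 4.55). A second tested locus of that name, PB.22543, was not called, with 20 counts in the barbel, 16 in the mouth rim and 3 in the esophagus. Its barbel share was 0.661 times that of the esophagus (95% counting interval 0.196 to 3.47). The actin cytoskeleton list, whose median log2 ratio was -0.08, held 0.993% of the barbel and between 0.561% and 0.980% of the others. PB.11323 was the only one of its 21 tested loci called in either direction, against 0.458% of all tested loci called higher and 1.62% lower. Scinderin is not in that list, and neither is actin itself (PB.12861), whose shortened name the list does not match. That locus alone had 3425 counts in the barbel, against 1946 for the whole list. The list thus describes actin-binding proteins more than actin. Cofilin-1-like (PB.5626), an actin-depolymerising protein and the largest locus of the list, had 896 counts in the barbel and 619 in the dorsal skin, a ratio of 0.895 (95% counting interval 0.807 to 0.994).

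Of the 21 tested loci of cell-matrix adhesion, 3 were called higher, against 0.458% of all tested loci. The first encodes transforming growth factor-beta-induced protein ig-h3-like (PB.21978), a secreted matrix protein that binds integrins. It had 1171 counts in the barbel (0.598%), against 109 in the ampullae (0.166%), 94 in the mouth rim (0.0827%), 30 in the dorsal skin (0.0248%), 15 in the upper palate (0.0239%) and 0 in the esophagus. Its barbel share was 3.61 times that of the ampullae (95% counting interval 2.96 to 4.43) and, without the ampullae, 7.23 times that of the mouth rim. Fermitin family homolog 1-like (PB.6319) encodes a kindlin, which activates integrins in epithelial cells. It had 126 counts in the barbel, 27 in the mouth rim, 13 each in the ampullae, upper palate and dorsal skin and 4 in the esophagus, and was 2.71-fold above the mouth rim (95% counting interval 1.78 to 4.27). Integrin-linked protein kinase (PB.9522), an adaptor at the inner face of integrins, had 54 counts in the barbel, 13 in the mouth rim, 7 in the upper palate, 5 in the ampullae, 4 in the dorsal skin and 0 in the esophagus, 2.41-fold above the mouth rim (95% counting interval 1.30 to 4.81). A second locus of that name, PB.8536, was distributed alike, with 41 counts in the barbel against 11 in the mouth rim, and reads of such duplicate loci may be exchanged between copies.

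Other members of the adhesion list were not called. Laminin subunit beta-3 (PB.21798), a chain of the basement membrane laminin under the epidermis, had 46 counts in the barbel, 10 in the mouth rim, 5 in the dorsal skin, 3 in the ampullae and 1 each in the upper palate and esophagus. It reached 2.67-fold over the mouth rim (95% counting interval 1.33 to 5.93), but its interval against the single count in the esophagus reached below 1. Collagen alpha-1(XVII) chain (PB.12291), a transmembrane collagen of hemidesmosomes, had 383 counts in the barbel and 203 in the mouth rim, a ratio of 1.09 (95% counting interval 0.921 to 1.30). Dystonin-like (PB.5593), of the plakin family that links filaments to hemidesmosomes and microtubules, went the other way and was called lower, with 21 counts in the barbel against 69 in the upper palate, 36 in the mouth rim, 35 in the ampullae, 28 in the dorsal skin and 22 in the esophagus. Its call, at a ratio of 0.464 to the dorsal skin, was not kept under all 6 totals. The list as a whole held 1.09% of the barbel and between 0.236% and 0.660% of the others. In 8 of its 21 tested loci (38.1%) the barbel share was above all 5 others, against 9.76% of all tested loci. Its median log2 ratio was -0.26, with the sum carried by PB.21978. This list was drawn up after the called loci were seen, so its counts only describe them.

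**Figure D3:**
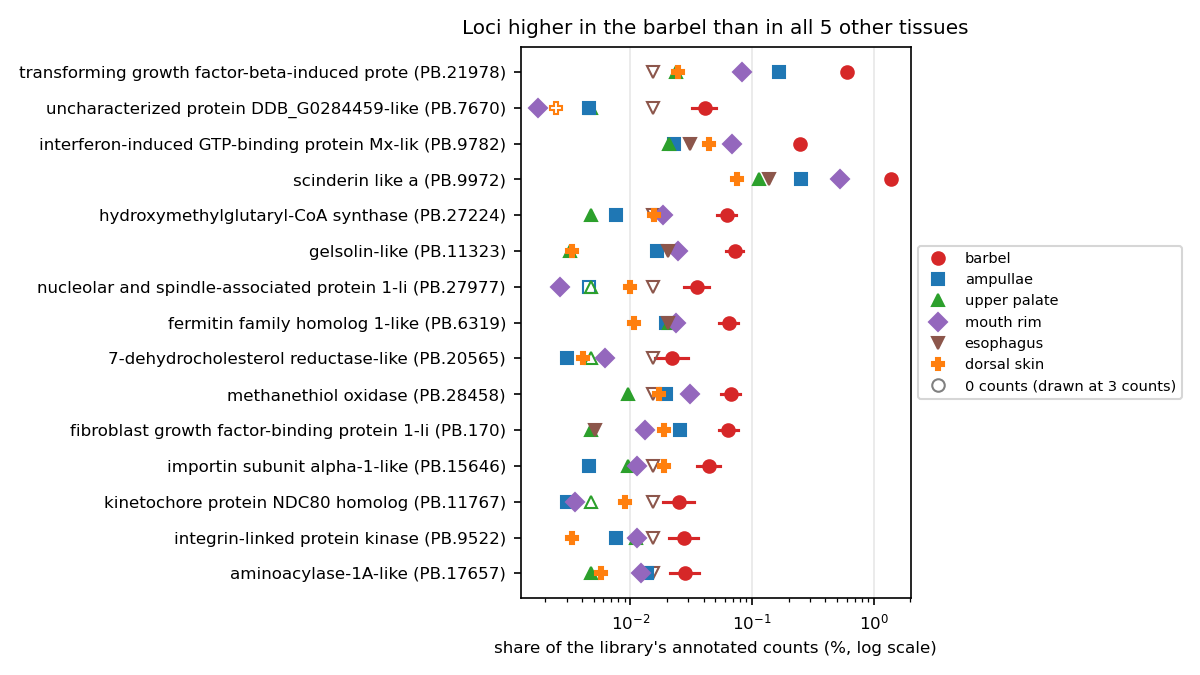
Share of annotated counts (%, log axis) of the 15 loci called higher in the barbel, in each of the 6 tissue libraries, with the 95% counting interval of the barbel as a red line. Open symbols mark 0 counts and are drawn at the share of 3 counts. Scinderin like a reaches 1.38% in the barbel and the ig-h3-like protein 0.598%.

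Fibroblast growth factor-binding protein 1-like (PB.170), a secreted carrier that releases growth factors from the matrix, had 125 counts in the barbel, 23 in the dorsal skin, 17 in the ampullae, 15 in the mouth rim, 3 in the upper palate and 1 in the esophagus. It was 2.47-fold above the ampullae (95% counting interval 1.48 to 4.37). All other tissues were thus well below the barbel for this secreted protein too.

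The interferon-induced GTP-binding protein Mx-like (PB.9782) belongs to a family of antiviral GTPases. It had 481 counts in the barbel (0.246%), against 78 in the mouth rim (0.0686%), 54 in the dorsal skin (0.0446%), 6 in the esophagus (0.0309%), 15 in the ampullae (0.0228%) and 13 in the upper palate (0.0207%). The barbel was 3.58-fold above the mouth rim (95% counting interval 2.81 to 4.60) and, without the mouth rim, 5.51-fold above the dorsal skin, and 92.7% of its counts came from a single transcript. Of 32 tested loci in the list of surface defence, Mx-like was the only one called higher, against 0.458% of all tested loci. Tripartite motif-containing protein 16-like (PB.26920), with 3 counts in the barbel, was the only one called lower, against 1.62%. That call was not kept under all 6 totals. The list held 0.787% of the barbel and between 0.499% and 1.03% of the others.

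Of 14 tested loci of sterol synthesis, 2 were called higher, against 0.458% of all tested loci. Hydroxymethylglutaryl-CoA synthase (PB.27224) makes the precursor of the mevalonate pathway, although the shortened name in the deposited table does not say whether it is the cytosolic form or the mitochondrial form of ketone synthesis. It had 122 counts in the barbel, 21 in the mouth rim, 19 in the dorsal skin, 5 in the ampullae, 3 in the upper palate and 0 in the esophagus, a share 3.37 times that of the mouth rim (95% counting interval 2.11 to 5.64). 7-dehydrocholesterol reductase-like (PB.20565), which makes cholesterol in the last step of its synthesis, had 43 counts in the barbel, 7 in the mouth rim, 5 in the dorsal skin, 2 in the ampullae and 0 in the upper palate and esophagus, 3.56-fold above the mouth rim (95% counting interval 1.59 to 9.39).

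Further sterol loci had their largest share in the barbel without being called. Delta(24)-sterol reductase-like (PB.9905), another late enzyme of cholesterol synthesis, had 26 counts in the barbel, 5 in the dorsal skin, 1 in the mouth rim and 0 in the ampullae, upper palate and esophagus. Insulin-induced gene 1 protein (PB.3930), a sterol-sensing regulator of the pathway, had 32 counts in the barbel, 8 in the dorsal skin, 3 in the mouth rim, 2 in the ampullae and 0 in the upper palate and esophagus. Both were called once the esophagus, the shallowest library, was left out. Of 14 tested loci in the list, 8 (57.1%) had their largest share in the barbel, against 9.76% of all tested loci, and 1 (7.14%) its smallest, against 21.3%. Loci with 0 counts in the esophagus, such as PB.9905 and PB.3930, could not have their smallest share in the barbel, so the 7.14% says little. The list held 0.225% of the barbel against 0.0515% to 0.122% of the others. This list, too, was drawn up after the called loci were seen.

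Spindle, chromosome and nuclear import proteins were a further group among the higher loci. Nucleolar and spindle-associated protein 1-like (PB.27977), which bundles spindle microtubules, had 69 counts in the barbel, 12 in the dorsal skin, 3 in the mouth rim and 0 in the ampullae, upper palate and esophagus, and was 3.56-fold above the dorsal skin (95% counting interval 1.91 to 7.22). Kinetochore protein NDC80 homolog (PB.11767), which attaches chromosomes to microtubules, had 49 counts in the barbel, 11 in the dorsal skin, 4 in the mouth rim, 2 in the ampullae and 0 in the upper palate and esophagus, 2.76-fold above the dorsal skin (95% counting interval 1.41 to 5.88). Importin subunit alpha-1-like (PB.15646), a carrier of proteins into the nucleus, had 87 counts in the barbel, 23 in the dorsal skin, 13 in the mouth rim, 6 in the upper palate, 3 in the ampullae and 0 in the esophagus, 2.34-fold above the dorsal skin (95% counting interval 1.46 to 3.88). A second locus of that name, PB.15600, ran the other way, with 2 counts in the barbel and 19 in the dorsal skin (ratio 0.0651). The call thus holds for PB.15646 alone and not for the protein name.

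For the 3 called loci of this group the dorsal skin was the highest other tissue, and without it their ratios were 13.3, 7.11 and 3.88. The proliferation list as a whole was high in both of these tissues. Its largest locus, DNA replication licensing factor mcm4-A (PB.4170), a subunit of the replicative helicase, had 97 counts in the barbel, 86 in the dorsal skin, 33 in the mouth rim, 15 in the ampullae, 5 in the upper palate and 0 in the esophagus. The barbel share was 0.698 times that of the dorsal skin (95% counting interval 0.517 to 0.944). Outside the list, cell division cycle protein 20 homolog (PB.10005), an activator of the anaphase-promoting complex, had 99 counts in the barbel and 37 in the dorsal skin but 6, 2, 1 and 0 in the mouth rim, upper palate, ampullae and esophagus. Cytoskeleton-associated protein 2 (PB.8438), a spindle protein, had 249 counts in the barbel and 102 in the dorsal skin but 13, 5, 2 and 0 in the mouth rim, ampullae, upper palate and esophagus. The proliferation list held 0.321% of the barbel and 0.423% of the dorsal skin, and between 0.0412% and 0.198% of the other 4 tissues. Of its 25 tested loci, 1 was called higher and 0 lower, against 0.458% and 1.62% of all tested loci. Of the 25, 11 (44.0%) had their largest share in the barbel against 9.76% of all tested loci. The list's ratio of barbel to the pooled others was 1.37 and became 2.18 without the dorsal skin. In bulk tissue, fewer cells of a type and less RNA per cell cannot be told apart.

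The remaining higher loci have no group in common. Methanethiol oxidase (PB.28458), a selenium-binding enzyme that breaks down methanethiol, had 131 counts in the barbel, 35 in the mouth rim, 21 in the dorsal skin, 13 in the ampullae, 6 in the upper palate and 0 in the esophagus, 2.17-fold above the mouth rim (95% counting interval 1.49 to 3.25) and 3.38-fold above the next tissue without it. Aminoacylase-1A-like (PB.17657), which frees amino acids from their acylated forms, had 55 counts in the barbel, 14 in the mouth rim, 9 in the ampullae, 7 in the dorsal skin, 3 in the upper palate and 0 in the esophagus. It lay nearest the threshold, at 2.05-fold over the ampullae (95% counting interval 1.01 to 4.72). An uncharacterized protein DDB_G0284459-like (PB.7670), of unknown role, was the most restricted: it had 80 counts in the barbel, 3 in the ampullae, 2 in the mouth rim and 0 in the other 3 tissues, 8.95-fold above the ampullae (95% counting interval 2.95 to 44.3) and, without them, 23.2-fold above the mouth rim. Just outside the rule, apart from PB.22701, were condensin-2 complex subunit D3-like (PB.25071) at 1.98-fold and protein kinase C and casein kinase substrate in neurons protein 3 (PB.19056) at 1.93-fold. No locus was held by the barbel alone in any quantity: 476 loci had counts in the barbel and in none of the other 5 tissues, with at most 9 counts each and 682 in all.

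Among the 10 most abundant barbel loci, which together held 30.3% of its counts against 12.2% to 22.3% for the 10 largest of each other tissue, several were shared with the ampullae. Annexin A1-like (PB.1945), a calcium-dependent membrane-binding protein, had 5884 counts in the barbel (3.00%), 1476 in the ampullae (2.24%), 2035 in the dorsal skin (1.68%), 864 in the mouth rim (0.760%), 131 in the upper palate (0.209%) and 16 in the esophagus (0.0824%). The barbel share was 1.34 times that of the ampullae (95% counting interval 1.26 to 1.42). Leukocyte elastase inhibitor-like (PB.3154), a serpin that blocks neutrophil proteases in mammals, had 3283 counts in the barbel (1.68%), 813 in the ampullae (1.24%), 536 in the dorsal skin (0.442%), 119 in the mouth rim, 36 in the upper palate and 10 in the esophagus. It was a gene of the barbel and ampullae, with a ratio of 1.36 between them (95% counting interval 1.25 to 1.47) and of 3.79 to the next tissue.

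The same set held proteins of cell junctions and of stratified epithelia. Plakophilin-1-like (PB.21755), a desmosomal plaque protein, had 3266 counts in the barbel, 1386 in the dorsal skin, 1184 in the mouth rim, 723 in the ampullae, 362 in the upper palate and 33 in the esophagus, and the barbel share was 1.46 times that of the dorsal skin (95% counting interval 1.37 to 1.55). The p53 apoptosis effector related to PMP-22 (PB.6483), a desmosome-associated membrane protein in mammals, had 3200 counts in the barbel and 1339 in the mouth rim, a ratio of 1.39 (95% counting interval 1.30 to 1.48). Actin (PB.12861) was 1.24 times its share in the ampullae. Of the pair of 14-3-3 protein beta/alpha-1-like loci, which bind phosphorylated proteins, PB.4693 was 1.30 times the ampullae and PB.3330 was level with the dorsal skin at 1.01 times (95% counting interval 0.935 to 1.08). All of these were below the 2-fold minimum. Of the 11 tested loci of the desmosome and envelope list, plakophilin-1-like and plakophilin-4-like (PB.12063, with 10 counts in the barbel and 1.07 times the upper palate share) had their largest share in the barbel, and the other 9 did not. A desmoplakin-like locus (PB.3216), which ties keratin to desmosomes, had 394 counts in the barbel and 231 in the ampullae, 0.573 times the ampullae share. Periplakin-like (PB.27199), a plakin of the cell envelope, had 143 counts in the barbel against 131 in the ampullae, 151 in the mouth rim, 172 in the dorsal skin, 106 in the upper palate and 32 in the esophagus, and its barbel share was the lowest of the 6, at 0.549 times the lowest other share, just outside the rule.

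The desmosome and envelope list held 2.16% of the barbel against 0.623% to 2.06% of the others, with 0 of 11 loci called. The list's ratio to the ampullae, the highest other tissue, was 1.05, within counting error (0.985 to 1.11). Its median log2 ratio was -0.12 although the summed ratio was 1.39, because plakophilin-1-like carries the sum. Of all tested loci 0.458% were called higher and 1.62% lower. Here and in the lists below, 0 calls thus say little about lists of such sizes. Annexins and S100 proteins held 4.40% of the barbel against 1.14% to 3.39% of the others, with 0 of 14 called. Tight and adherens junction genes, led by catenin beta-1 (PB.3066, 436 counts in the barbel, 1.20 times the dorsal skin), held 0.607% of the barbel against 0.508% to 0.895%, with 0 of 15 called. Summed markers of stratified epithelium were thus plentiful in the barbel library, but desmosome genes were not set apart from the ampullae and junction genes lay inside the range of the others. No list holds a marker particular to barbels.

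**Figure D4:**
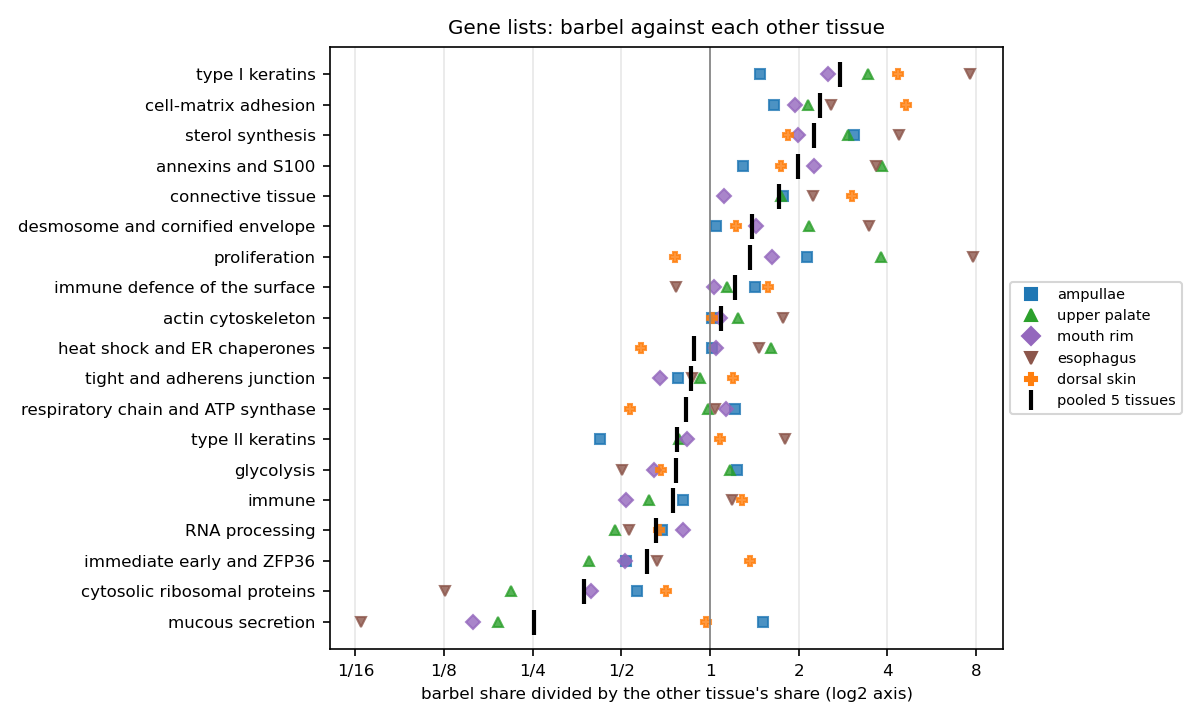
Barbel share of each of 19 gene lists divided by the share in each other tissue (symbols, log2 axis) and in the 5 pooled (black bar). Type I keratins lie above 1 against all 5 tissues, and cytosolic ribosomal proteins lie below 1 against all 5, at 0.373 pooled. With TMM effective totals 6 lists that lie below 1 pooled here (chaperones, tight and adherens junctions, respiratory chain, type II keratins, glycolysis, immune) lie above 1.

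Connective tissue markers were also plentiful in the barbel, as they were in the mouth rim. SPARC-like (PB.13912), a collagen-binding matrix protein, had 159 counts in the barbel, 63 in the mouth rim, 29 in the upper palate, 24 in the ampullae, 14 in the dorsal skin and 7 in the esophagus, 1.46 times the mouth rim share (95% counting interval 1.09 to 1.99). Collagen alpha-1(I) chain-like (PB.28181), the main fibrillar collagen of dermis, had 117 counts in the barbel, 44 in the mouth rim, 13 each in the ampullae and upper palate, 2 in the dorsal skin and 1 in the esophagus, 1.54 times the mouth rim share (95% counting interval 1.08 to 2.23). Decorin (PB.7475), a small proteoglycan of fibroblasts, had 48 counts in the barbel, 21 in the mouth rim, 6 in the upper palate, 1 in the esophagus and 0 in the ampullae and dorsal skin. Vimentin-like (PB.3825), the intermediate filament of mesenchymal cells, ran the other way with 18 counts in the barbel and 42 in the dorsal skin, a ratio of 0.265. Of 13 loci tested, 0 were called, but 7 (53.8%) had their largest share in the barbel against 9.76% of all tested loci, and the list held 0.473% of the barbel against 0.156% to 0.425% of the others. The list's ratio to the mouth rim, the highest other tissue, was 1.11, within counting error (0.995 to 1.24). The part of connective tissue in the higher matrix adhesion loci was not tested.

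Markers of other cell types were few. The taste bud list had 0 counts in all 6 tissues, so that the barbel's share was at most that of 3 counts, and the 6 names it matched held 105 counts over the 18 libraries. Pigment markers were at 0 in the barbel, nerve and Schwann cell markers at 0.0199% (39 counts, led by synaptotagmin-2-like, PB.20411, with 9) against 0.0154% to 0.0317%, and vessel endothelium at 7 counts (stabilin-2-like, PB.7481, with 3). Electroreceptor and hair cell markers had 4 counts in the barbel, all of calretinin-like (PB.18212), against 16 in the upper palate, and their ratio to the pooled others moved from 0.411 to 2.18 without the upper palate. The muscle list held 29 counts, 28 of them tropomyosin alpha-1 chain (PB.21310), and was 0.0148% of the barbel against 0.0228% to 0.0475%. The blood list held 109 counts, 104 of them 5-aminolevulinate synthase (PB.17729), and was 0.0556% against 0.0558% to 0.165%. Each of these 2 sums mostly describes 1 locus whose name gives no cell type, so neither measures muscle or red cells. The adipocyte list held 141 counts, 113 of them fatty acid-binding protein (PB.19906), and was 0.0720% of the barbel against 0.0314% to 0.0618%. Its ratio to the esophagus, the highest other tissue, was 1.17, within counting error (0.647 to 2.31). The shortened protein name does not say which form PB.19906 encodes, so the adipocyte sum does not measure fat cells. Cartilage markers were 45 counts, of which transcription factor Sox-9-B-like (PB.15461) gave 41 against 108 in the mouth rim, so that the list's ratio turned from 0.624 to 2.13 without the mouth rim. A barbel sensory cell type was thus not visible through the fixed markers at this depth. The protein names stop at the first comma, so markers whose pattern runs past a comma could match no locus. The electroreceptor list matched only 2 loci with counts. An absence in these lists is thus partly set by the names and does not show that a cell type was missing.

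Mucous secretion genes were low. They held 0.0577% of the barbel (113 counts), near the dorsal skin (0.0594%) and ampullae (0.0380%) and far below the upper palate (0.303%), mouth rim (0.367%) and esophagus (0.885%). Integumentary mucin C.1-like (PB.17949), the largest, had 36 counts in the barbel, 29 in the mouth rim, 22 in the dorsal skin, 13 in the upper palate, 12 in the ampullae and 8 in the esophagus. Gel-forming mucin-2-like (PB.13250) had 7 counts in the barbel against 56 in the mouth rim, 54 in the upper palate and 28 in the esophagus. In mucous genes the barbel was thus like the outer skin. Immune markers held 0.972% of the barbel against 0.756% to 1.88%, with 0 of 19 called. Lysozyme C (PB.4422), which cleaves bacterial walls, had 643 counts in the barbel and was 0.591 times the ampullae share, while lysozyme g-like (PB.18131) had 361 and was 1.54 times the mouth rim share (95% counting interval 1.26 to 1.89).

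Ribosomal protein genes were low in the barbel. Cytosolic ribosomal proteins made up 1.66% of the barbel, against 2.34% of the dorsal skin, 2.95% of the ampullae, 4.22% of the mouth rim, 7.85% of the upper palate and 13.2% of the esophagus. At 63 of the 113 tested loci (55.8%) the barbel share was below all 5 others, against 21.3% of all tested loci, and at 0 it was above all 5. The 21.3% includes loci with 0 counts in another tissue, which cannot be below all 5. The median log2 ratio of the list was -1.56, against -0.43 over all tested loci. Of the 113, 5 were called lower, against 1.62% of all tested loci. Among these 5, 40S ribosomal protein S6 and 60S ribosomal protein L8 (PB.8674) kept the call under all 6 totals. 40S ribosomal protein S6 (PB.2192) had 4 counts in the barbel, 14 in the dorsal skin, 10 in the ampullae, 34 in the mouth rim, 32 in the upper palate and 21 in the esophagus, and was 5.66-fold below the dorsal skin (ratio 0.177, 95% counting interval 0.0424 to 0.563). The largest locus of the list, 60S acidic ribosomal protein P0 (PB.11515), had 300 counts in the barbel and 202 in the dorsal skin, and its ratio of 0.919 to that lowest tissue was within counting error (0.766 to 1.10). The summed ratio to the pooled tissues was 0.373, and it stayed below 1 under each of the other totals tried, at 0.549 with TMM effective totals.

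RNA processing was the other large group among the lower loci, with 11 of its 136 tested loci called, against 1.62% of all tested loci. Of these 11, 5 kept the call under all 6 totals, namely PB.4695 (polyadenylate-binding protein 1), PB.11687, PB.14033, PB.16250 and PB.20212 (RNA-binding protein 5-like). Nucleolin-like (PB.16250), a protein of ribosome assembly in the nucleolus, was the clearest of these, with 19 counts in the barbel, 104 in the dorsal skin, 100 in the upper palate, 59 in the ampullae, 55 in the mouth rim and 44 in the esophagus. It was 4.99-fold below the mouth rim (95% counting interval of the ratio 0.112 to 0.343), and its ratio was 0.113 without the mouth rim. A second nucleolin-like locus, PB.10805, held more counts, with 216 in the barbel and 236 in the mouth rim, and was not called. Its ratio to the mouth rim was 0.531 (95% counting interval 0.439 to 0.641), so the call holds for PB.16250 alone. Dual specificity protein kinase CLK4b (PB.14033), which phosphorylates splicing factors, had 10 counts in the barbel, 165 in the upper palate, 56 in the esophagus, 41 in the mouth rim, 39 in the ampullae and 32 in the dorsal skin, and was 5.17-fold below the dorsal skin (ratio 0.193, 95% counting interval 0.0848 to 0.403). Serine/arginine repetitive matrix protein 1-like (PB.22212), a splicing coactivator, had 33 counts in the barbel, 230 in the upper palate, 91 in the mouth rim, 73 in the esophagus, 68 in the ampullae and 54 in the dorsal skin, with a ratio to the dorsal skin of 0.378 (95% counting interval 0.237 to 0.594) and of 0.210 to the next lowest tissue without it.

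A locus named splicing factor (PB.11687) had 6 counts in the barbel and 11 to 45 in the others, and zinc finger CCCH domain-containing protein 13-like (PB.9190), which the list does not hold, a part of the complex that methylates adenosines of mRNA, had 7 counts in the barbel and 6 to 24 in the others. Both remained lower under all 6 totals, as did PB.16250 and CLK4b but not PB.22212. In all, 55 of the 136 RNA processing loci (40.4%) had their smallest share in the barbel against 21.3% of all tested loci, and 9 their largest. The list held 3.41% of the barbel against 4.22% to 7.18% of the others, but with TMM effective totals its pooled ratio moved from 0.655 to 0.965. This list was drawn up after the called loci were seen. The largest barbel locus of the list went the other way: U1 small nuclear ribonucleoprotein 70 kDa-like (PB.7674), a core spliceosome protein, had 617 counts in the barbel, 217 in the ampullae, 95 in the dorsal skin, 44 in the mouth rim, 8 in the upper palate and 7 in the esophagus, level with the ampullae at 0.954 times (95% counting interval 0.816 to 1.12).

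The other named lower loci differ in role. E3 ubiquitin-protein ligase TTC3-like (PB.8235) had 2 counts in the barbel and 10 to 20 in the others, 9.70-fold below the dorsal skin (ratio 0.103, 95% counting interval 0.0112 to 0.463). Argininosuccinate synthase-like (PB.14350), of arginine synthesis, had 21 counts in the barbel and 24 to 49 in the others, a ratio of 0.280 to the upper palate (95% counting interval 0.148 to 0.525). Eukaryotic translation initiation factor 5-like (PB.19353) had 9 counts in the barbel and 8 to 26 in the others, with a ratio of 0.237 to the mouth rim (95% counting interval 0.0962 to 0.536). It lost this direction when all loci of that protein name were summed, at 1.08. All 3 thus rest on few barbel counts.

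**Figure D5:**
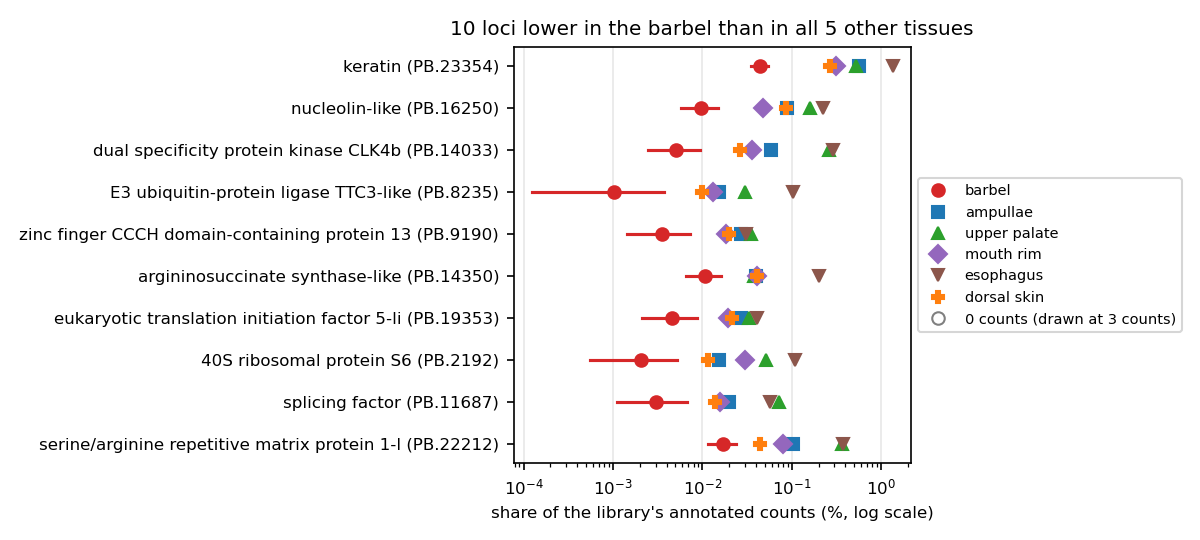
Share of annotated counts (%, log axis) of the 10 named loci called lower in the barbel, in each of the 6 tissue libraries, with the 95% counting interval of the barbel as a red line. The keratin PB.23354 is 0.0439% in the barbel and at least 0.271% in each other tissue.

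Near the threshold of the lower rule, synaptotagmin-like protein 2 (PB.9753), a factor of vesicle traffic, was called at a ratio of 0.462 to the dorsal skin and serine/arginine-rich splicing factor 2b (PB.15902) at 0.487. DEAD box polypeptide 39B (PB.23028), an RNA helicase of mRNA export with 40 barbel counts, lay just outside. The transcript make-up of loci also differed in the barbel. Among loci with at least 50 counts in both libraries, this transcript took a median of 84.9% to 93.4% of the barbel counts against 67.6% to 75.3% in the other tissue. The barbel share was the larger at between 73.8% (217 of 294 loci, mouth rim) and 81.6% (129 of 158, ampullae) of loci. How much of this comes from the choice of transcript was not tested. Thinned to the 19427 counts of the shallowest library, the barbel held 5055 transcripts at 3198 loci and the others 6411 to 7367 transcripts at 3473 to 3839 loci. Counted by the most abundant transcript of each locus alone, a setting chosen after the data were seen, 11 of the 15 higher loci but 15 of the 53 lower loci kept their call. The transcript was picked by the same sum, so these counts carry the same tilt toward the barbel. The part of transcript make-up or RNA quality in the lower loci was not tested.

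Lists of energy supply, stress response and protein breakdown lay within the range of the other tissues, while iron storage lay just under it. Respiratory chain genes, led by ATP synthase subunit beta (PB.10543, 485 counts, 0.674 times the dorsal skin), held 1.23% of the barbel against 1.02% to 2.30%, with 0 of 52 called. Glycolysis, led by glyceraldehyde-3-phosphate dehydrogenase (PB.18488, 375 counts), held 0.670% against 0.544% to 1.33%, with 0 of 15 called. Heat shock and chaperone genes, led by heat shock cognate 70 kDa protein (PB.24767, 1637 counts, 0.881 times the dorsal skin), held 2.09% against 1.30% to 3.59%, with 0 of 30 called. Cathepsins and cystatins, led by cathepsin B-like (PB.5308, 154 counts), held 0.335% against 0.218% to 0.445%, with 0 of 11 called. Iron and metal storage, led by ferritin (PB.25799, 134 counts), held 0.0944% against 0.102% to 0.654%, the lowest of the 6, with 0 of 3 called. With 0.458% of all tested loci called higher and 1.62% lower, these counts of 0 say little about the lists.

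The list of immediate early genes, a class that includes genes responding within minutes to handling, was not raised in the barbel. It held 0.920% of the barbel, above the dorsal skin (0.675%) and below the other 4 tissues (1.39% to 2.38%). Transcription factor jun-D-like (PB.24309), the largest, had 1502 of the list's 1803 counts in the barbel, 0.505 times the upper palate share. The summed share thus mostly describes that 1 locus. Of 8 tested loci, 5 (62.5%) had their smallest share in the barbel, against 21.3% of all tested loci. Nuclear receptor subfamily 4 group A member 1 (PB.28090) had 4 counts in the barbel against 64 in the mouth rim, 56 in the upper palate, 10 in the dorsal skin, 6 in the esophagus and 5 in the ampullae.

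Over the 3278 tested loci the barbel library was most like the dorsal skin, with a Pearson correlation of 0.833 on log2 shares to which 0.005% was added. The mouth rim followed at 0.818 and the ampullae at 0.790, with the upper palate at 0.632 and the esophagus at 0.464. These are correlations across loci of 2 libraries at a time, the loci are not independent, and their order is also the order of depth of the 5 libraries. The 5 white sturgeon epithelial cultures of the mouth rim and skin, 1 of them dodecaploid, which the rule did not use, lay on the barbel's side of the tissues at many called loci. The culture median was below all 5 other tissues at 48 of the 53 lower loci (90.6%), against 29.1% of all tested loci, and above them at 7 of the 15 higher loci (46.7%), against 20.3%. The same 5 tissues enter both the calls and these counts, so a tissue value that is high or low by chance moves both. A lower call also needs a count in each of the 5 tissues. The 29.1% includes loci with 0 counts in a tissue, where no culture can lie below. Part of the gap between 90.6% and 29.1% is thus set by the rule. Keratin PB.23354 had a culture median of 0, hydroxymethylglutaryl-CoA synthase (PB.27224) was higher in cultures (0.153% to 0.590%) than in the barbel (0.0623%), and Mx-like (PB.9782) was near absent from them (at most 0.00897%).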

How the data were processed

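Total RNA of dissected white sturgeon tissue was converted to cDNA, amplified by PCR and sequenced as PacBio Iso-Seq. The deposited values are whole-number counts of reads per transcript, not scaled, which the authors made with the IsoSeq3 pipeline, alignment to the sterlet genome, Sqanti3 filtering (at least 3 supporting reads) and a protein search against sterlet. The protein names in the table stop at the first comma. The aligner is not given in the sources used here. Of 70537 transcripts, 65116 carry a sterlet protein name. Coordinates and sequences were not used here.

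Counts were summed by PacBio locus and divided by the annotated counts of the library. Loci with at least 20 counts over the 6 tissues were tested. Ratios have exact 95% intervals (conditional binomial, Clopper-Pearson), and shares have Clopper-Pearson intervals. The rule was that a 2-fold minimum and all 5 intervals must hold. Genes named in the text are the 15 higher and 10 lower called loci with the most extreme interval bounds, the 10 largest barbel loci, the largest locus of each of 31 gene lists, and loci chosen after their values were seen (the members given as examples of a list, those near a threshold and those added when a tissue was left out). The members, lists and rules were chosen with earlier results of these data known. Lists were matched on protein names, 12 were trimmed of unrelated names, the 2 keratin types were taken from loci in the study's accession list, and 4 lists were added after the data were seen. Parts of a pattern that run past a comma matched nothing, because the names stop there. White sturgeon reads mapped to a sterlet genome may be split between duplicate loci.

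Alternatives were other totals (all counts, without keratin loci or PB.22701, TMM, DESeq2 size factors), fold, interval and count minimums, transcripts or protein names in place of loci, thinning (seed 1), leaving out each tissue, the most abundant transcript of each locus or 3 of the other tissues alone, and edgeR 4.0.16 and DESeq2 1.42.0 (R 4.3.3) with the 5 other tissues as 1 group. Intervals were computed with scipy 1.17.1 and tables with pandas 2.3.3 and numpy 2.4.6 under Python 3.11.15. The interval rule and the fits were tested on simulated data. With counting error alone, the rule called 65 of 100 loci raised 6-fold and 27 of 100 lowered 6-fold, and 0 unchanged loci. A locus that was not called may thus still differ, more so on the lower side.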

Additional observations from a re-analysis of the deposited data

Results flagged for a closer look

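Counts without a sterlet protein name enter none of the comparisons above. At 6 loci such transcripts held at least 0.1% of all barbel counts, which is above the share that a count of 0 allows. PB.26569 had 1676 counts in the barbel (0.821% of all its counts), the lowest share of the 6 tissues, against 1.07% in the dorsal skin and 23.7% in the esophagus. PB.23439 had 1108 in the barbel (0.543%), against 309 in the ampullae (0.410%), 62 in the mouth rim, 37 in the esophagus, 26 in the dorsal skin and 10 in the upper palate. The unnamed transcripts of loci that also hold named transcripts were 284 counts at PB.17958 (thymosin beta-like), 273 at PB.7674 (U1 small nuclear ribonucleoprotein 70 kDa-like), 254 at PB.22701 (keratin) and 205 at PB.28181 (collagen alpha-1(I) chain-like). The last had 102 counts in the mouth rim and 7 to 15 in the other 4 tissues. By the rule used for named loci, 0 of 260 loci of unnamed transcripts were higher in the barbel and 14 were lower. Of the tested named loci 0.458% were higher and 1.62% lower. Shares of unnamed transcripts were taken of all counts. Unnamed counts as a whole were 4.07% of the barbel library against 5.68% to 34.8% of the others, so the 14 calls are not separate from that difference. No tissue has more than 1 library, so none could be set against others of its own tissue.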

How the results depend on the processing

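The main counts were 15 loci higher and 53 lower in the barbel. The higher count was 25 with all counts as the total, 79 with TMM effective totals, 50 with DESeq2 size factors, 46 with no fold minimum, 6 at 3-fold, 33 for transcripts in place of loci, 6 after thinning to the shallowest library (1009 loci tested), and, chosen after the data were seen, 56 against only the ampullae, upper palate and mouth rim. The lower count was 15 with TMM effective totals, 19 with DESeq2 size factors, 32 at 3-fold, 22 with a 99% interval, 6 after thinning, and, chosen after the data were seen, 151 against those 3 tissues and 25 by the top transcript of each locus. The other changes of total, threshold and feature stayed within 1.5 times the main counts. Leaving out a tissue gave 15 to 34 higher and 57 to 123 lower loci. The higher count was 24 without the ampullae or the mouth rim, 26 without the esophagus and 34 without the dorsal skin, and the lower count was 123 without the dorsal skin. With the 5 other tissues as 1 group, edgeR and DESeq2 called 0 loci in either direction at an adjusted p of 0.05. The called loci were chosen from these same counts, so the fits are no separate check of them. The lone barbel library is there assumed to vary like the others, and the spread between tissues stands in for replicate error.

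Ratios to the pooled other tissues changed direction with TMM effective totals and DESeq2 size factors, respectively, for type II keratins (1.14 and 1.05), tight and adherens junctions (1.27 and 1.17), immune markers (1.10 and 1.01), the respiratory chain (1.22 and 1.12), glycolysis (1.13 and 1.04) and chaperones (1.31 and 1.20). Leaving out a tissue gave 0.743 to 1.10 for the respiratory chain and 0.813 to 1.16 for chaperones, in each case above 1 without the dorsal skin, and 0.452 to 2.13 for cartilage, above 1 without the mouth rim. The PB.19353 ratio was 1.08 by protein name. These scalings shift every barbel share by a constant factor. Leaving out the highest or lowest other tissue moved the ratio of 10 named called loci by over 1.5 times. It moved away from 1 each time, which is fixed in advance because the ratio is taken to the most extreme other tissue. Over all settings, 437 ratios of single loci stayed within the counting interval of the main value, 108 moved and 1 turned, and for lists these were 121, 122 and 15. Medians over loci and summed ratios differed in sign for desmosomes, nerve, cathepsins, the actin cytoskeleton, keratins of any type and cell-matrix adhesion. No paired analysis was possible because each tissue has 1 library.

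The design has 1 library per tissue, the esophagus is the shallowest library, and tissue cannot be told apart from fish or from any difference in processing between libraries.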

Other observations

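Leaving out the esophagus, the shallowest library, added 11 loci to the 15 higher ones. Besides laminin subunit beta-3, PB.8536, PB.9905 and PB.3930 described above, they include extracellular matrix protein A-like (PB.24909), with 23 counts in the barbel, 1 in the dorsal skin and 0 in the other 4 tissues, mothers against decapentaplegic homolog 9 (PB.9574), a Smad that carries bone morphogenetic protein signals, with 32 counts in the barbel against 2 to 5 in the tissues other than the esophagus (0), and transforming acidic coiled-coil-containing protein 3-like (PB.40), a spindle protein, with 20 counts in the barbel, 4 in the dorsal skin, 2 in the mouth rim and 0 in the other 3.

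Leaving out the dorsal skin added 19 higher loci, which are loci high in both of these tissues. Targeting protein for Xklp2-A-like (PB.19793), a spindle assembly factor, had 50 counts in the barbel and 22 in the dorsal skin against at most 10 elsewhere. Tubulin beta-4B chain (PB.14335) had 142 and 78 against at most 30. Heme-binding protein 2-like (PB.5611) had 232 and 272 against at most 21, and carbonic anhydrase-like (PB.3812), which hydrates carbon dioxide, had 43 and 17 against at most 1. A superoxide dismutase [Cu-Zn]-like locus (PB.8495), which removes superoxide, had 57 and 54 against at most 10.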
